A study of Mus musculus with 4 samples.

Results

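The hypersensitive sites around mouse Bcl2l1 were described from 4 DNase-seq libraries, a method that maps open chromatin by where DNase I cuts it. Sites were taken from the stretch chr2:152550000-152720000 of build mm9, which is 170 kb long and was chosen to hold Bcl2l1 and its flanks. All regions of the 4 deposited lists that overlap this stretch were included, and overlapping or touching regions of different lists were joined into 1 site. This gave 17 sites out of 103288 in the genome, numbered 1 to 17 in order of mm9 position. Its edges were set by position, but the locus itself was chosen by measured values: 1 of its sites, site 9, was already known to be dense with Dex+E2 and Dex and missing with E2. All values below are therefore a description, and no test supports them.

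The cells were the 7438 line, mouse mammary cells that carry GFP-tagged glucocorticoid receptor (GR) and Cherry-tagged estrogen receptor (ER), each driven by a tetracycline-regulated promoter. Per the labels' protocols all cells were plated 48 h before the experiment in serum stripped with charcoal and dextran, and all were kept without tetracycline for the last 24 h so that both fusion receptors were made, the untreated cells included. The Dex+E2 cells then received 100 nM dexamethasone, a synthetic ligand of GR, together with 100 nM estradiol, a ligand of ER, for 30 min. The Dex cells received 100 nM dexamethasone alone and the E2 cells 100 nM estradiol alone for the same time, and the untreated cells received neither. Each condition had 1 library. Differences between libraries therefore could not be set against a spread between replicates, and no p-value for a hormone was computed.

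Bcl2l1 encodes BCL-XL, a mitochondrial protein of the BCL-2 family that keeps cells alive by binding the pore-forming proteins BAX and BAK and the BH3-only proteins that activate them. A shorter splice form, BCL-XS, promotes cell death instead. In the mammary gland BCL-XL is known as a survival factor of the epithelium, and glucocorticoids are known to raise its expression in cultured mammary epithelial cells. GR bound to its ligand enters the nucleus and binds DNA at palindromic elements, often within or beside chromatin that becomes hypersensitive to DNase I. RNA was not measured in these libraries, so nothing below gives the expression of Bcl2l1, and the mammary identity of the cells was not checked here against marker genes.

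The protein-coding genes on either side of Bcl2l1 in RefSeq's GRCm38.p6 annotation are, in order, Id1, Cox4i2, Bcl2l1, Tpx2 and Mylk2. Id1 encodes an inhibitor of basic helix-loop-helix transcription factors, Cox4i2 a subunit of cytochrome c oxidase, Tpx2 a spindle assembly factor and Mylk2 a myosin light chain kinase of muscle. That annotation uses a later build than the lists, so the sites were not assigned to exons, introns or promoters, and no site is called a site of Bcl2l1 here.

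RefSeq gives 3 transcription starts of Bcl2l1 on the minus strand of chromosome 2, and the 250 bases before each are shown. Whether these bases regulate the gene was not tested. They are given in GRCm38.p6, 5′ to 3′, from the start farthest upstream to the one farthest downstream, and they were not placed on the mm9 sites. Capitals mark matches on either strand to ACANNNTGT, the core of the GR element, or to AGGTCA, an arm of the palindromic ER element.
Bcl2l1 start 1: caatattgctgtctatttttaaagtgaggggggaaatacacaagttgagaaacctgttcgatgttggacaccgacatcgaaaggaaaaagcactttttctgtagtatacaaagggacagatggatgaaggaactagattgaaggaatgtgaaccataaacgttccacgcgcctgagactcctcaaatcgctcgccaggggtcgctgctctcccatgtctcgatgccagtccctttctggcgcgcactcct
Bcl2l1 start 2: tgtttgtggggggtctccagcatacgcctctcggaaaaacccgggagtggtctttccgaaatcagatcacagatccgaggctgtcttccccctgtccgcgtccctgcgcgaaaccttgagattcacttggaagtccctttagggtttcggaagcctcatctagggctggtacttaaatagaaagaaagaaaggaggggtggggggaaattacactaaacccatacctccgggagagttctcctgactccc
Bcl2l1 start 3: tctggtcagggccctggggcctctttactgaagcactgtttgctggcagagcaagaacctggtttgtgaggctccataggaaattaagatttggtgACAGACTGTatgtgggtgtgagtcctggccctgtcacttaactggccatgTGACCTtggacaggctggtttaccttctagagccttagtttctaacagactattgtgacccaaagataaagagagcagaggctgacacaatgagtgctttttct
Start 3 held 1 match to each of these motifs, ACAGACTGT and TGACCT, which do not overlap each other. The other 2 starts held none. Among 32851 RefSeq promoter sequences of the same length, 5.84% held the GR core and 14.02% held AGGTCA. No start of Bcl2l1 held the full GR element (AGAACA, any 3 bases and its reverse complement, in 0.00913% of promoters), the full ER element (GGTCA, any 3 bases and its reverse complement, in 0.0639% of promoters) or the AP-1 motif TGANTCA (6.75% of promoters). A match describes letters and not a bound site.

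Each listed region has a maximum tag density (MaxD, the height of its summit), an average tag density (AveD) and a width, taken as end minus start. MaxD was made of whole steps in every list, and 1 step was read as 1 tag. Brackets after a density give the exact Poisson 95% interval of the tags at the summit, which covers counting error only. The Dex+E2, Dex, E2 and untreated lists held 50061, 51251, 35496 and 65879 regions. Read totals are not known here. As deposited, median densities were lower in the hormone libraries: over the 20687 sites found in all 4 lists the median MaxD was 15.4 for Dex+E2, 14.7 for Dex, 10.2 for E2 and 30.1 for untreated. Ratios below are therefore taken after dividing each density by its library's median. The ratio as deposited is the same ratio times a factor that is constant within a comparison: 0.488 for Dex over untreated, 0.339 for E2 over untreated, 0.513 for Dex+E2 over untreated, 1.05 for Dex+E2 over Dex and 1.51 for Dex+E2 over E2.

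The window was dense in hypersensitive DNA in every library. Its regions covered 7.20% of the window in the Dex+E2 list, 6.88% in the Dex list, 5.46% in the E2 list and 8.91% in the untreated list, against 1.16%, 1.23%, 0.766% and 1.76% of the span of all chromosomes in the same order of lists. The number of separate regions was 17 with Dex+E2, 11 with Dex, 15 with E2 and 15 untreated. Some sites were split into 2 regions, and the number of sites was 13, 10, 12 and 15 in the same order, highest in the untreated list. Of the 17 sites, 8 (47.1%) were in all 4 lists, against 20.03% of all sites in the genome, and 3 were in 1 list only, as were 58.8% of all sites. The first site inside the lower edge of the window was chr2:152560592-152562491 and the next one outside was chr2:152527434-152528008 (10.4 Dex+E2, 7.84 Dex, 6.60 E2 and 13.3 untreated). At the upper edge, site 17 (chr2:152714399-152714989) lay inside, and chr2:152729161-152730642 (47.4, 39.7, 31.4 and 92.3 in the same order) lay outside.

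**Figure D1:**
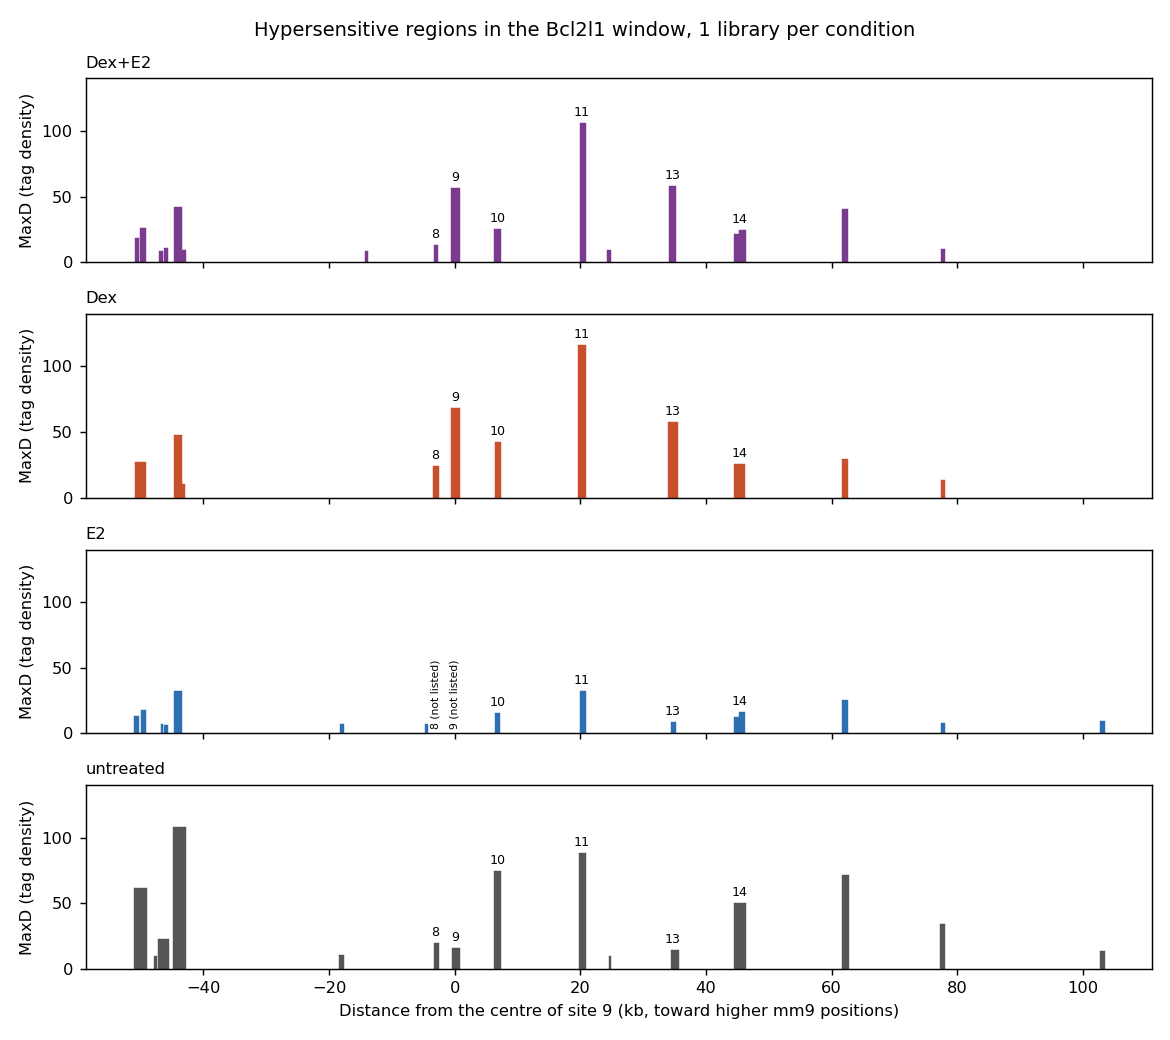
Maximum tag density (y axis, linear) of every listed region in the window against its distance in kb from the centre of site 9 (x axis), with 1 panel per library and bar widths equal to region widths. Sites 9, 11 and 13 are tall with Dex+E2 and Dex, while sites 9 and 13 are at 16.1 and 14.3 in the untreated library, where sites 10 and 14 are taller than they are.

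Setting Dex against untreated asks which sites differ once GR is bound by its ligand. In MaxD, sites 8, 9, 11 and 13 were higher with Dex by every scaling used. As deposited, the intervals of Dex and untreated did not overlap at sites 9, 11 and 13, while at site 8 they did. The AveD of site 8 as deposited was not higher with Dex (6.31) than untreated (6.37). Sites 9, 11 and 13 lie within 34.7 kb of each other, with sites between them that were not higher by every scaling. Site 9, chr2:152610975-152612330, led the window. Its MaxD was 56.3 (49.5 to 63.7) with Dex+E2, 68.6 (60.8 to 77.1) with Dex and 16.1 (12.3 to 20.6) untreated, and it was not listed with E2. Both libraries with Dex stood far above the untreated one, and their intervals did not overlap its interval. Relative to the library medians, Dex was 8.74-fold above untreated (6.63 to 11.7, counting error only), which was rank 44 from the top of the 31784 sites listed in both libraries. As deposited the same ratio was 4.27-fold. The absence of site 9 from the E2 list says that it fell short of the authors' threshold there, and gives no value for a fold. The lowest MaxD listed with E2 was 6.60 in the window and 2.20 in the genome.

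Site 13, chr2:152645642-152647130, lies 34.7 kb from site 9 and had nearly the same Dex ratio. Its MaxD was 57.9 (51.0 to 65.4) with Dex+E2, 57.8 (50.7 to 65.7) with Dex, 8.40 (6.05 to 11.4) with E2 and 14.3 (10.8 to 18.5) untreated. The libraries with Dex were alike at this site, and both libraries without Dex were low. Dex was 8.29-fold above untreated (6.17 to 11.3), rank 49 of 31784, and 4.05-fold above it as deposited.

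Site 11, chr2:152631334-152632458, lies between sites 9 and 13, 20.2 kb from site 9. It was already strong before hormone: its MaxD was 106 (96.8 to 116) with Dex+E2, 117 (106 to 128) with Dex, 32.0 (27.2 to 37.4) with E2 and 88.0 (79.0 to 97.8) untreated. It was the densest site of the window in both libraries with Dex, where 0.338% of the Dex+E2 list and 0.213% of the Dex list reached its density, against 3.99% of the E2 list and 2.87% of the untreated list. Dex was 2.71-fold above untreated relative to the medians (2.36 to 3.13). As deposited, Dex exceeded untreated by 1.32-fold, so that the size of this difference rests mostly on the scaling while its direction does not.

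The fourth site past the 2-fold limit was site 8, chr2:152608205-152608943, which lies 3.08 kb before site 9. Its MaxD was 13.4 (10.2 to 17.3) with Dex+E2, 24.5 (19.9 to 29.8) with Dex and 19.9 (15.7 to 24.8) untreated, and it was not listed with E2. The intervals of Dex and untreated overlapped as deposited. The ratio of 2.52 (1.86 to 3.44) for Dex over untreated comes from the division by the medians, since as deposited it was 1.23.

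In all, 4 of the 10 window sites listed in both libraries were at least 2-fold higher with Dex than untreated and 0 were lower. Over all 31784 such sites in the genome 11.8% were higher and 0.406% lower, so a 2-fold higher site is common on this scale. Ratios as high as those of sites 9 and 13 were found at 0.138% and 0.154% of all sites. As deposited, 2 sites of the window were higher (sites 9 and 13) and 4 lower, against 1.10% and 40.8% of all sites. The median log2 ratio was 0.15 in the window and 0.16 over all sites. Of the 3757 sites in the genome at least 2-fold higher with Dex, 584 (15.5%) had at least 2 others within 50 kb, as those in the window have. The nearest such site outside the window was weak (chr2:152967729-152968350, with 7.03 for Dex+E2, 8.82 for Dex and 8.67 untreated) and lay 356 kb from site 9, and on the other side the nearest was 874 kb away.

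**Figure D2:**
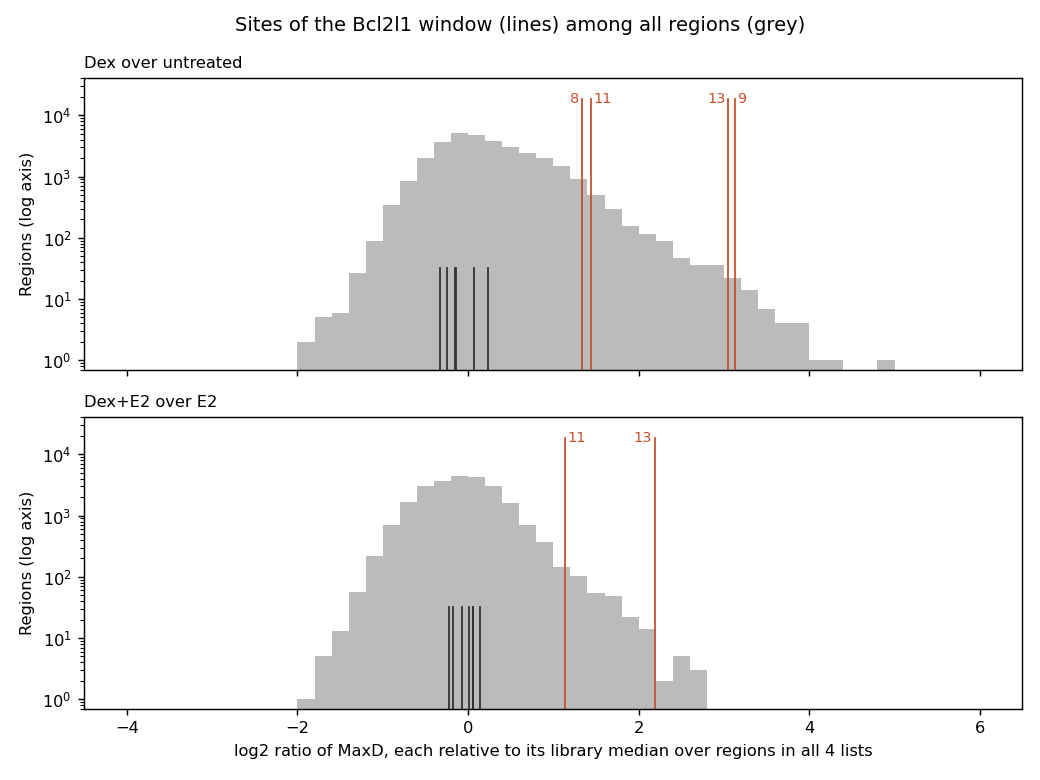
Number of sites (y axis, log scale) by log2 ratio of MaxD relative to library medians (x axis), for Dex over untreated (top) and Dex+E2 over E2 (bottom), over all sites in both lists of a comparison. Tall numbered lines mark window sites past the 2-fold limit and short lines the other window sites. Sites 9 and 13 lie at 3.13 and 3.05 in the upper panel and site 13 at 2.19 in the lower one, in the sparse upper tails.

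The remaining 6 sites listed with Dex and untreated lay between −0.32 and 0.23 on the log2 scale relative to the medians, and each was lower with Dex as deposited. Site 10, chr2:152617881-152618899, lies 6.74 kb from site 9 and between it and site 11. Its MaxD was 25.6 (21.1 to 30.8) with Dex+E2, 42.6 (36.5 to 49.4) with Dex, 15.4 (12.2 to 19.2) with E2 and 74.2 (65.9 to 83.3) untreated, so that the untreated library was highest here. Dex over untreated was 1.18 (0.969 to 1.42) relative to the medians and 0.574 as deposited.

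Neighbouring sites of 1 library share its scaling, so their ratio does not depend on it. Site 9 was 2.19 times as dense as site 10 with Dex+E2 (1.75 to 2.77) and 1.61 times with Dex (1.33 to 1.96), against 0.216 times untreated (0.162 to 0.285). The order of these 2 neighbours was thus opposite in the libraries with Dex and in the untreated one. Site 8 lies closer to site 9 than site 10 does. Site 9 was 4.20 times as dense as site 8 with Dex+E2 (3.15 to 5.68) and 2.80 times with Dex (2.22 to 3.55). Untreated it was 0.808 times as dense (0.570 to 1.14), so the order of sites 8 and 9 was unclear there. Site 13 was 2.34 times as dense as site 14 with Dex+E2 and 2.23 times with Dex, against 0.519 times with E2 and 0.283 times untreated. The density of site 11 over that of site 10 was 4.14 with Dex+E2, 2.74 with Dex, 2.08 with E2 and 1.19 untreated. These ratios show that neighbouring sites changed unequally and do not show which of them changed. Within the window, site 9 had rank 3 from the top with Dex+E2, rank 2 with Dex and rank 10 untreated. Site 13 had rank 2 with Dex+E2, 3 with Dex, 8 with E2 and 11 untreated.

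**Figure D3:**
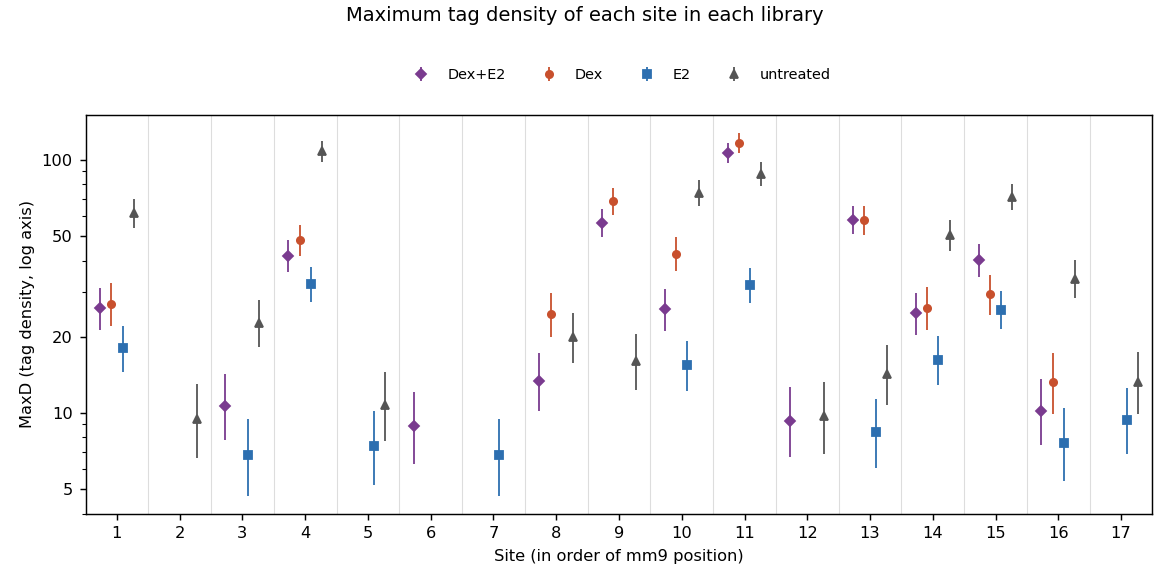
Maximum tag density (y axis, log scale) of the 17 sites (x axis) in each library as deposited, with exact Poisson 95% intervals of the tags at the summit; a missing point means that the site was not in that list. At sites 9, 11 and 13 the Dex+E2 and Dex points lie above the untreated point, and at sites 1, 4, 10, 14, 15 and 16 they lie below it.

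Setting Dex+E2 against E2 asks the same of Dex in cells that also received E2, and uses no density of the Dex or untreated library. The Dex and untreated lists still entered the joining of sites and the choice of shared sites over which the medians were taken. Ratios relative to the medians are therefore not fully independent of those libraries, while the ratios as deposited do not use the medians. Site 13 was 4.55-fold higher with Dex+E2 than with E2 (3.28 to 6.47), rank 11 of the 24166 sites in both lists, and 6.89-fold higher as deposited. Site 11 was 2.19-fold higher (1.83 to 2.64), rank 289, and 3.32-fold higher as deposited. Sites 8 and 9 have no ratio here because the E2 list lacks them. The other 7 sites lay between −0.22 and 0.14 on the log2 scale. Thus 2 of 9 window sites were at least 2-fold higher and 0 lower, against 1.66% higher and 1.2% lower over all sites, and the calls were the same sites as deposited, where 12.5% of all sites were higher and 0.0248% lower.

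For Dex+E2 over untreated, which shares its untreated library with Dex over untreated, site 13 was 7.90-fold higher (5.90 to 10.8), site 9 was 6.83-fold higher (5.16 to 9.16) and site 11 was 2.35-fold higher (2.04 to 2.71). Of 12 window sites in both lists these 3 were at least 2-fold higher and 0 lower, against 10.7% and 1.09% over all 32130 sites. As deposited 2 were higher, sites 9 and 13, and 6 were lower. Over all sites 1.36% were higher and 35.9% lower as deposited. Site 8 was at 1.31-fold (0.920 to 1.86) relative to the medians and 0.673-fold as deposited, so its direction turned with the scaling.

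Setting Dex+E2 against Dex asks what the addition of E2 goes with. No window site reached 2-fold in either direction: 0 of 10 sites were higher and 0 lower, against 1.58% and 1.32% over all 29066 sites. At site 13 the ratio was 0.953 (0.796 to 1.14), at site 11 it was 0.868 (0.762 to 0.988) and at site 9 it was 0.782 (0.656 to 0.931). Site 8 was lowest, at 0.521 (0.371 to 0.725), followed by site 10 at 0.573 (0.448 to 0.730). Ratios at least as high as these were found at 98.2% and 96.6% of all sites, so both lie in the low tail. The highest was site 15, 1.30-fold above Dex (1.03 to 1.65), a ratio reached by 14.2% of all sites. The median log2 ratio was −0.24 in the window and −0.07 over all sites. By average density site 10 passed the limit, with a log2 ratio of −1.03.

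E2 against untreated bears on the activation of ER. Sites 5 and 17 were 2.04-fold (1.27 to 3.25) and 2.09-fold (1.38 to 3.16) above untreated relative to the medians. Both are weak and both were lower with E2 as deposited, so their direction depends on the scaling. Site 5, chr2:152593240-152593869, had a MaxD of 7.40 (5.21 to 10.2) with E2 and 10.7 (7.72 to 14.5) untreated. Site 17 had 9.40 (6.91 to 12.5) with E2 and 13.3 (9.91 to 17.4) untreated. Neither was listed with Dex+E2 or Dex. At the sites that were high with Dex, E2 over untreated was 1.74 (1.13 to 2.64) at site 13 and 1.07 (0.884 to 1.30) at site 11, and as deposited 0.588 and 0.364. In all 2 of 11 sites were at least 2-fold higher and 0 lower, against 14.4% and 0.38% of all 24486 sites. As deposited 0 were higher and 8 lower, where 0.208% and 74.7% of all sites were. The lowest was site 10, at 0.612 (0.470 to 0.790) relative to the medians and 0.207 as deposited.

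**Figure D4:**
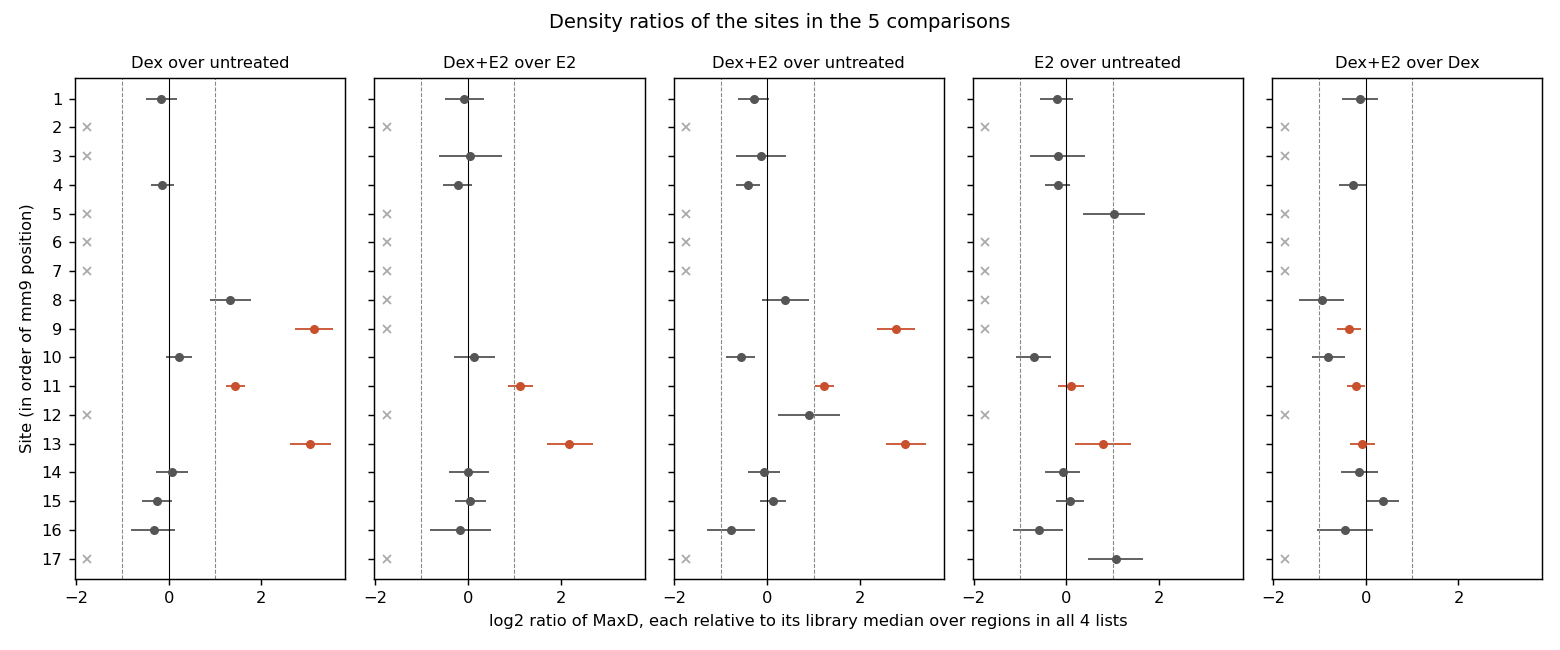
Log2 ratios of MaxD relative to library medians (x axis) for the 17 sites (y axis) in the 5 comparisons, with intervals that cover counting error only; orange marks sites 9, 11 and 13, dashed lines the 2-fold limits and grey crosses sites that 1 or both lists lack. The 3 orange sites lie above 1 in the panels of Dex over untreated and Dex+E2 over untreated, and between −0.36 and −0.07 in that of Dex+E2 over Dex.

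Average densities and widths of the sites with the highest Dex ratios followed the summits in part. At site 9 AveD was 11.6 with Dex+E2, 12.98 with Dex and 3.42 untreated, while the region was 1283 bp wide with Dex+E2, 1330 bp with Dex and 1171 bp untreated. The summit thus differed between libraries far more than the width did. At site 13 AveD was 13.7 with Dex+E2, 11.02 with Dex, 1.89 with E2 and 2.98 untreated, over 951, 1385, 622 and 1045 bp. The Dex region of site 13 was therefore wider than that of Dex+E2 at the same summit height, and its AveD lower. At site 11 AveD was 29.2, 29.1, 8.57 and 22.5 in the same order, over 949, 1119, 774 and 934 bp. Site 8 had an AveD of 3.79 over 563 bp with Dex+E2, 6.31 over 738 bp with Dex and 6.37 over 667 bp untreated. At site 10 AveD was 5.50, 9.88, 3.95 and 15.3 over 860, 842, 714 and 1018 bp in the order Dex+E2, Dex, E2 and untreated.

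Toward the lower edge of the window, sites 1 to 4 lie within 8.08 kb. Site 4, chr2:152566849-152568671, was the densest site of the untreated and E2 lists in the window. Its MaxD was 41.7 (35.9 to 48.2) with Dex+E2, 48.0 (41.5 to 55.2) with Dex, 32.2 (27.4 to 37.6) with E2 and 108 (98.1 to 119) untreated. Dex over untreated was 0.909 (0.764 to 1.08) relative to the medians, E2 over untreated 0.879 and Dex+E2 over untreated 0.753 (0.630 to 0.897). As deposited these ratios were 0.444, 0.298 and 0.386, each past the 2-fold limit. The untreated list has it as 1 region of 1809 bp (AveD 19.6) and the E2 list as 1 of 1103 bp (AveD 6.86). Both lists with Dex split it, into regions of 1058 and 457 bp (AveD 9.18 and 2.91) with Dex+E2 and of 1146 and 451 bp (AveD 9.39 and 2.56) with Dex. The E2 region ends at chr2:152568075, before the second region starts with Dex+E2 (chr2:152568214) or with Dex (chr2:152568162). The E2 list thus holds only the first of these stretches, while the untreated region overlaps both.

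Site 1, chr2:152560592-152562491, was a broad site of 1899 bp untreated. Its highest summit was 25.9 (21.3 to 31.1) with Dex+E2, 26.9 (22.1 to 32.5) with Dex, 18.0 (14.5 to 22.1) with E2 and 61.5 (54.0 to 69.7) untreated. Relative to the medians its log2 ratios lay between −0.28 and −0.07 in the 5 comparisons. Dex and untreated lists hold it as 1 region (AveD 5.53 over 1612 bp and 11.3 over 1899 bp). The lists with E2 hold it as 2 regions, with AveD of 7.13 and 6.56 over 565 and 759 bp for Dex+E2 and of 4.04 and 4.60 over 639 and 695 bp for E2.

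Site 14, chr2:152656079-152657808, showed the same split in both lists with E2. Its highest summit was 24.7 (20.3 to 29.8) with Dex+E2, 26.0 (21.3 to 31.4) with Dex, 16.2 (12.9 to 20.1) with E2 and 50.5 (43.7 to 58.0) untreated. The 2 parts had AveD of 5.93 and 5.14 over 661 and 940 bp with Dex+E2, and of 3.31 and 3.64 over 639 and 823 bp with E2. With Dex it was 1 region of 1616 bp (AveD 5.03) and untreated 1 region of 1726 bp (AveD 8.28). The E2 list has the lowest median density of the 4, and whether splitting goes with density was not tested.

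Sites 15 and 16 lie farther toward the upper edge. Site 15, chr2:152673284-152674190, had a MaxD of 40.2 (34.5 to 46.5) with Dex+E2, 29.4 (24.4 to 35.1) with Dex, 25.6 (21.4 to 30.4) with E2 and 71.4 (63.3 to 80.3) untreated. It had rank 3 in the window with E2 and rank 4 untreated. Its AveD was 11.8, 7.34, 6.87 and 21.7 over 724, 870, 747 and 906 bp in the order Dex+E2, Dex, E2 and untreated. At site 16, chr2:152688905-152689589, MaxD was 10.2 (7.45 to 13.7), 13.2 (9.93 to 17.3), 7.60 (5.38 to 10.4) and 33.9 (28.4 to 40.2) in that order of libraries. Its AveD was 2.64, 3.22, 2.21 and 9.14 over 569, 584, 561 and 684 bp. Site 16 was the lowest of the window in Dex+E2 over untreated, at 0.587 (0.409 to 0.829) relative to the medians and 0.301 as deposited.

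The other 7 sites were weak or missing from lists. Site 3, chr2:152564351-152565946, was not listed with Dex, and its highest MaxD was 10.7 (7.83 to 14.2) with Dex+E2, 6.80 (4.71 to 9.50) with E2 and 22.7 (18.2 to 27.9) untreated. It was split into 460 and 547 bp with Dex+E2 (AveD 1.87 and 2.53) and 286 and 390 bp with E2 (AveD 1.42 and 1.60), and was 1595 bp wide untreated (AveD 4.03). Site 12, chr2:152635913-152636436, was in the Dex+E2 and untreated lists only, with MaxD of 9.30 (6.67 to 12.6) and 9.69 (6.86 to 13.3), AveD of 2.19 and 1.42, and widths of 523 and 259 bp. Sites listed in 1 library were site 2 (chr2:152563782-152564087, untreated, MaxD 9.44, AveD 1.66, 305 bp), site 6 (chr2:152597359-152597738, Dex+E2, MaxD 8.85, AveD 2.09, 379 bp) and site 7 (chr2:152606928-152607179, E2, MaxD 6.80, AveD 1.55, 251 bp). Each of these 3 lies near the middle of its list, where 48.7% (site 2), 46.3% (site 6) and 57.4% (site 7) of regions were at least as dense. Site 5 had an AveD of 2.07 over 442 bp with E2 and 2.94 over 566 bp untreated, and site 17 had 2.25 over 590 bp and 4.16 over 563 bp.

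The pattern of site 9, listed with Dex+E2, Dex and untreated but not with E2, was shared by 6022 sites outside the window, and in the window by site 8. Ordered by the Euclidean distance of log2 MaxD over the 3 libraries, the 5 nearest to site 9 were chr6:135024176-135025172 (51.7 with Dex+E2, 63.4 with Dex and 14.8 untreated, distance 0.204), chr2:124730521-124731534 (49.7, 54.4 and 15.6, distance 0.383), chr13:41615678-41616607 (49.2, 54.9 and 15.0, distance 0.387), chr16:5119212-5120125 (54.9, 56.6 and 12.8, distance 0.435) and chr4:55788554-55789631 (64.9, 52.7 and 14.3, distance 0.465). All lie far from the window, the nearest being on the same chromosome, and their genes were not looked up.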

How the data were processed

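Each library came as its own list of called hypersensitive regions. The submitters' processing notes name mm9 as the build and CASAVA 1.8 without a role. Which aligner and caller made the lists is not given in the sources used here, and the labels' extraction text mentions sonicated nuclei only. Per the file headers, the authors deposited for each region a maximum and an average tag density (signal, scaled per library to an unstated total), a Z score and a p-value. The score and the deposited p-value set a region against its own library, and only densities were compared across libraries.

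Within 0.02 tags, 100% of the maximum densities of each list fell on whole multiples of a step (0.227 Dex+E2, 0.245 Dex, 0.200 E2, 0.255 untreated), which is the value of 1 tag. Regions overlapping by at least 1 bp, or touching, were joined, and a site has in each library its highest value there. Log2 ratios were taken after division by library medians over sites in all 4 lists, with intervals from the exact binomial 95% interval of the tags. A missing site got no ratio. With 1 library per condition no test was made. A 2-fold limit was used for calls.

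Sites described one by one were the 5 densest and those past 2-fold with Dex; all 17 are accounted for. The window, the rules and the lists of alternatives were chosen with earlier results of these data known. The functions were tested on simulated data. Alternatives covered the density measure, the scaling, joining within 150 bp, equal list lengths and the window's edges. RefSeq sequences and gene order are from GRCm38.p6, not converted to mm9. Software was Python 3.11.15 with SciPy 1.17.1, pandas 2.3.3, NumPy 2.4.6 and, for figures, Matplotlib 3.10.9.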

Additional observations from a re-analysis of the deposited data

How the results depend on the processing

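No paired analysis was possible because each condition has 1 library, and for the same reason no replicate could be left out. The scaling mattered most. As deposited, site 9 had log2 ratios of 2.09 for Dex over untreated and 1.81 for Dex+E2 over untreated, against 3.13 and 2.77 relative to the medians, with the same direction. The deposited scale gave 2 sites at least 2-fold higher and 4 lower for Dex over untreated, 0 higher and 8 lower for E2 over untreated, and 6 lower for Dex+E2 over untreated; of all sites 40.8%, 74.7% and 35.9% were lower in these comparisons. Sites 5 and 17, called higher for E2 over untreated, turned to log2 ratios of −0.53 and −0.50 as deposited. By average density 0 sites were called higher for E2 over untreated and 1, site 10, lower for Dex+E2 over Dex. Site 8 lost its call for Dex over untreated (log2 0.99, leaving 3 sites) and site 12 gained one for Dex+E2 over untreated (log2 1.44, giving 4). Medians of the densest 25% of the shared sites and joining within 150 bp left all 52 log2 ratios of the window within their counting intervals, and lists of equal length changed no count. Regions listed in the window numbered 26 with Dex+E2, 20 with Dex, 23 with E2 and 27 untreated when it was 50 kb wider on each side. When it was 20 kb narrower they numbered 11, 8, 9 and 10 in the same order, where fewer sites fit by construction. Depth limits sites of under about 10 in density, whose summits hold 33 to 47 tags.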
